A study of Mus musculus with 8 samples.

Results

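Kupffer cells are the macrophages that live inside the liver sinusoids, and the 10 genes described here are commonly used to recognise them in mouse liver. The genes are Clec4f, Marco, Cd5l, Vsig4, Timd4, Folr2, Adgre1, Csf1r, Mpeg1 and Cd68, and they were looked up by name among the 22564 genes of the deposited mRNA table. All 10 were found, 9 under these symbols and Adgre1 under its older symbol Emr1. Levels were compared between liver libraries of db/db mice and liver libraries of C57BL/6 control mice, 4 in each group.

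The db/db mouse lacks the long, signalling form of the leptin receptor in every tissue, overeats, and develops obesity, diabetes and a fatty liver. Both groups are labelled as liver tissue of untreated animals. According to the methods, the db/db mice came from another supplier than the male C57BL/6J mice of the study and were younger when bought, and it is not stated whether the control libraries come from those C57BL/6J mice. Sex and background strain of the db/db mice and the age of either group at collection are likewise not stated, so strain, supplier and age cannot be told apart from the genotype. Nor is it stated that each library is a separate animal, and the tests therefore rest on variation among libraries that may in part be technical. Replicate numbers are names within a group only.

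Values are FPKM, in which fragments are scaled to the length of the transcript and to the mapped fragments of the library, so that levels of different genes can be set side by side. From the smallest steps between values of genes with 1 annotated transcript, a db/db library was estimated to hold about 16800000 to 20300000 fragments and a control library about 15100000 to 18500000. All 10 members passed the filter, which asked for 1 FPKM or more in 4 or more libraries, as did 9863 genes in all. Hepatocytes supply most of the RNA of such libraries. Alb, which encodes albumin, was listed at 0 in all 8 libraries, so a listed 0 in this table is not taken as absence.

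Kupffer cells clear bacteria, complement-coated particles, ageing blood cells and apoptotic cells from portal blood. In the mouse they are seeded before birth and largely renew themselves, and their survival depends on signalling through the Csf1 receptor. Monocytes can refill an emptied niche, and such newcomers acquire Clec4f before they acquire Timd4. Among the 10 genes, Clec4f, Marco, Cd5l, Vsig4, Timd4 and Folr2 are within the mouse liver largely restricted to Kupffer cells or to resident macrophages, while Adgre1, Csf1r, Mpeg1 and Cd68 are shared by many macrophages and monocytes.

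In db/db livers, 3 of the 10 genes were significantly lower and 1 was significantly higher by limma (adjusted p under 0.05). Marco, Folr2 and Clec4f were lower, and all of them belong to the 6 genes largely restricted to resident macrophages. Mpeg1, which belongs to the 4 general macrophage genes, was higher. Marco passed the filter only through the control libraries, which fixed its direction, and of the other 9 members 2 were lower and 1 was higher. Among all tested genes, 11.6% were called lower and 16.0% were called higher in db/db livers, and the members' counts were not tested against these shares. The remaining 6 members did not pass the threshold. They were Timd4, Cd5l and Vsig4 of the restricted genes and Adgre1, Csf1r and Cd68 of the general ones. All of them had log2 fold changes below 0, so Mpeg1 did not stand for the general genes. The median log2 fold change was −0.26 over the 10 members and 0.04 over all tested genes, and 9 of the 10 members had a value below 0, as did 45.6% of all tested genes. The median of the members was −0.14 with equal FPKM sums and −0.15 without control replicate 1, and 6 of the 10 were then below 0 in each case. The number below 0 was also 6 without db/db replicate 4 and 7 to 9 in the other settings in which all 10 were tested. In whole liver, fewer Kupffer cells and less of a transcript per Kupffer cell cannot be told apart.

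**Figure D1:**
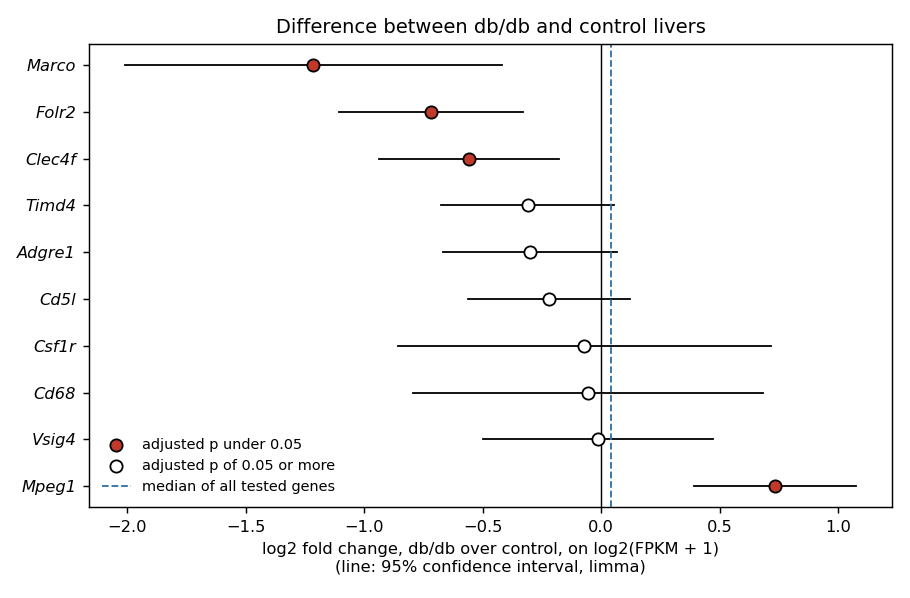
The log2 fold change of db/db over control livers on the log2(FPKM + 1) scale (x axis) is shown for each of the 10 genes (y axis), with its 95% confidence interval from limma (4 libraries per group). Filled points mark adjusted p-values under 0.05, which Marco, Folr2, Clec4f and Mpeg1 reached, and the dashed line is the median of all tested genes at 0.04.

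The bases in front of the transcription start are shown for these 4 genes because they moved in different directions. Each stretch is the 250 bases upstream of a RefSeq start (GRCm38.p6), written 5′ to 3′ on the strand of the gene. Capitals mark matches on either strand to GAGGAA, the core bound by the macrophage factor PU.1, to TGCTGA, a half-site of MAF factors, and to TGGGAA, the core bound by the Notch effector RBPJ. The 3 motifs do not overlap in the 4 stretches. Folr2 has 2 RefSeq starts, and the stretch shown belongs to the start inside the locus that the deposited table gives for this gene. It lies within the longer gene that GENCODE gives. The RefSeq start of Clec4f also lies inside the annotated gene, so the end of its stretch, including TGGGAA, is within the gene as the table and GENCODE give it.
Clec4f, chr6:83656117-83656366, minus strand: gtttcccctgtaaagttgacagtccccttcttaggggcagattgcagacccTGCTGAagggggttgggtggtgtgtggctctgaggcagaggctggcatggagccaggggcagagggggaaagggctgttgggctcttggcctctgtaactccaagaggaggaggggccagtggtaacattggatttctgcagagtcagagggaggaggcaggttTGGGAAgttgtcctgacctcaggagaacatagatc
Folr2, chr7:101845332-101845581, minus strand: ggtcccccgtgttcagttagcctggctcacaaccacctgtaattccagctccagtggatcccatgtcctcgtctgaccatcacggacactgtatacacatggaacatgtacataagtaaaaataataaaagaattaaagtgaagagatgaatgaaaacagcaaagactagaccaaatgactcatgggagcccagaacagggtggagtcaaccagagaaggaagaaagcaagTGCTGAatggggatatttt
Marco, chr1:120505025-120505274, minus strand: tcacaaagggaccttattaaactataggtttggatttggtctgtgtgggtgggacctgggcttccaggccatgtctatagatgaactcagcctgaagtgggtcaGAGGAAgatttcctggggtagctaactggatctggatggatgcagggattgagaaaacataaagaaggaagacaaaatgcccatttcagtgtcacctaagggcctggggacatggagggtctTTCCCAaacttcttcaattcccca
Mpeg1, chr19:12460520-12460769, plus strand: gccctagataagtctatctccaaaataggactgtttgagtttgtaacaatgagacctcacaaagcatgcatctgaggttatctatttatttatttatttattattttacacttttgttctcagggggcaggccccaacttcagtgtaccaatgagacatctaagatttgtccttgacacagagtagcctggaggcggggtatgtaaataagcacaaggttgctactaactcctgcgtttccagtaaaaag

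The Marco stretch held GAGGAA 146 bases and the reverse complement of TGGGAA 24 bases before the start. The Clec4f stretch held TGCTGA 199 bases and TGGGAA 35 bases before the start, and the Folr2 stretch held TGCTGA 19 bases before it. The Mpeg1 stretch held none of the 3. Over all 32851 RefSeq stretches of this length, 23.2% held GAGGAA, 16.1% held TGCTGA and 21.6% held TGGGAA. Over the 9 stretches read for 8 members, 4 held GAGGAA, 5 held TGCTGA and 3 held TGGGAA. Csf1r was left out of this reading, and Adgre1 had no RefSeq stretch to read. A match describes the letters only and is not evidence of binding.

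The order of the levels was similar in both groups. Clec4f was the highest member, with a mean of 41.8 ± 6.94 FPKM in db/db livers and 62.7 ± 14.9 FPKM in control livers (SD, n = 4 each). Cd5l came next, and in both groups its range overlapped neither that of Clec4f nor that of the gene after it. Below Cd5l, most neighbours in the order overlapped. In db/db livers the order went on with Mpeg1, Vsig4, Cd68, Folr2, Csf1r, Timd4, Adgre1 and Marco, and of these neighbours only Vsig4 and Cd68 had separate ranges. In control livers it went on with Vsig4, Mpeg1, Folr2, Cd68, Marco, Csf1r, Timd4 and Adgre1, and every neighbouring pair overlapped. Mpeg1 thus stood above Vsig4 by its mean in db/db livers only, and Marco was the lowest member there.

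**Figure D2:**
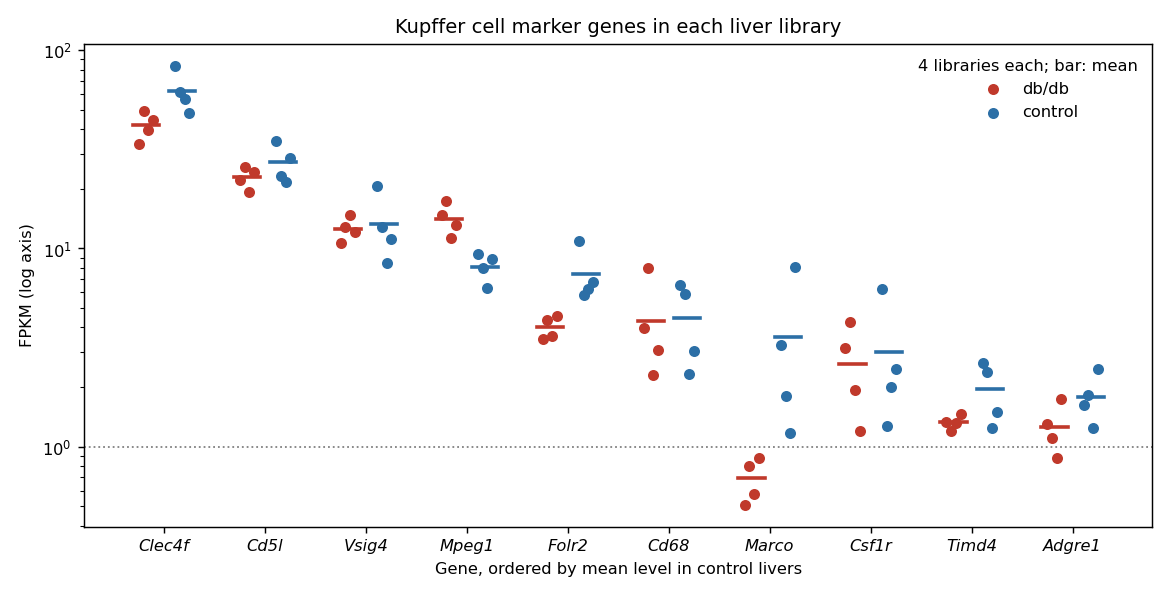
Each point is the level of a gene in 1 library in FPKM (y axis, log scale), with db/db libraries left of control libraries, 4 each, and a bar at the group mean. The dotted line is 1 FPKM, which no db/db library reached for Marco, and genes are ordered along the x axis by their mean in control livers.

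Clec4f encodes a C-type lectin that binds galactose-terminated glycans and that in the mouse is made almost only by Kupffer cells (ENSMUSG00000014542, chr6:83644542-83656187, minus strand, mm10). Its levels were 33.5, 49.6, 39.4 and 44.7 FPKM in db/db replicates 1 to 4, against 83.4, 61.9, 56.8 and 48.5 FPKM in control replicates 1 to 4. Of the db/db libraries, 3 of 4 lay below every control library, and db/db replicate 2 lay just above control replicate 4. This gave a log2 fold change of −0.56 with a standard error of 0.17 (limma, adjusted p = 0.0337). The exact permutation test over the libraries gave p = 0.0571 (2-sided), where 0.0286 is the smallest value that 4 against 4 allows. The call was close to the threshold and was lost without db/db replicate 1 (adjusted p = 0.079), 3 (0.0725) or 4 (0.0534), without control replicate 1 (0.084) or 2 (0.069), with no filter on low values (0.0697) and with equal FPKM sums (0.0778).

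Folr2 encodes folate receptor beta, a membrane-anchored folate-binding protein of resident macrophages (ENSMUSG00000032725, chr7:101839988-101857194, minus strand, mm10). It had 3.51, 4.34, 3.64 and 4.58 FPKM in db/db replicates 1 to 4, against 10.9, 5.85, 6.22 and 6.77 FPKM in control replicates 1 to 4. Every db/db library was below every control library, and control replicate 1 stood above the other controls. The mean in db/db livers was 0.541 times that in control livers, and the log2 fold change was −0.72 with a standard error of 0.18 (limma, adjusted p = 0.0121, exact permutation p = 0.0286). Without control replicate 1 the log2 fold change was −0.54 and the adjusted p was 0.0177. Folr2 was called lower under all 19 alternative settings, with adjusted p-values of 0.00835 to 0.0326. Its gene overlaps the antisense transcript Gm10602, and how the counting used strand is not stated, so reads of the 2 may not be separated.

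Marco encodes a scavenger receptor that takes up bacteria and particles (ENSMUSG00000026390, chr1:120474538-120505024, minus strand, mm10). It had 0.509, 0.799, 0.580 and 0.882 FPKM in db/db replicates 1 to 4, against 3.25, 1.80, 1.17 and 8.05 FPKM in control replicates 1 to 4. Every db/db library was below every control library, and the control libraries themselves spanned 6.85-fold. These values correspond to about 18, 25, 17 and 28 fragments in db/db libraries and to about 108, 48, 34 and 228 fragments in control libraries, so counting error alone is sizeable in db/db livers. For example, 17 fragments carry an exact 95% Poisson interval of 9.9 to 27.2, which covers counting error only.

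The log2 fold change of Marco was −1.21 with a standard error of 0.36 (limma, adjusted p = 0.0284, exact permutation p = 0.0286). Marco passed the filter only through the control libraries. That fixed its direction, the full separation of the groups and with it this permutation p. Marco is also in the study's own list of genes changed in these libraries, so its direction is not independent evidence. The log2 fold change was −1.87 with a pseudocount of 0.1 FPKM and −0.81 without control replicate 4, the highest library. The adjusted p lay between 0.0506 and 0.0656 when any of db/db replicates 1 to 4 or control replicate 1 was left out, and it was 0.0761 with no filter.

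Mpeg1 encodes perforin-2, a pore-forming protein that phagocytes direct against bacteria they have engulfed (ENSMUSG00000046805, chr19:12460779-12465283, plus strand, mm10). It had 14.7, 17.4, 11.3 and 13.2 FPKM in db/db replicates 1 to 4, against 9.36, 7.94, 6.29 and 8.81 FPKM in control replicates 1 to 4. Every db/db library was above every control library. The mean in db/db livers was 1.75 times that in control livers, and the log2 fold change was 0.73 with a standard error of 0.15 (limma, adjusted p = 0.00563, exact permutation p = 0.0286). This gene has 1 annotated transcript, and its values correspond to about 796 to 1292 fragments in db/db libraries and 426 to 727 in control libraries. Mpeg1 was called higher under all 19 alternative settings, with log2 fold changes of 0.63 to 0.88 and adjusted p-values of 0.0024 to 0.0177. It was the only member with a positive log2 fold change in the fit to all 8 libraries, but Vsig4 (0.14), Csf1r (0.05) and Cd68 (0.07) were also above 0 with equal FPKM sums, as they were without control replicate 1 (0.21, 0.26 and 0.13 in the same order).

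Across the 10 members, 2 had every db/db library below every control library and 1 had every db/db library above. The 2 were Folr2 and Marco, and Marco passed the filter only through the control libraries, which fixed its separation. Over all tested genes, 12.1% were separated downwards and 17.3% upwards in this way.

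Among the 6 members that were not called, Timd4 encodes a receptor for phosphatidylserine on apoptotic cells and marks long-resident Kupffer cells (ENSMUSG00000055546, chr11:46810800-46844332, plus strand, mm10). It had 1.34, 1.20, 1.32 and 1.46 FPKM in db/db replicates 1 to 4, against 2.66, 2.38, 1.25 and 1.49 FPKM in control replicates 1 to 4. Control replicates 1 and 2 lay above all db/db libraries, while control replicates 3 and 4 lay within or near their range. For Timd4 the log2 fold change was −0.31 with a 95% confidence interval of −0.68 to 0.06 (limma, adjusted p = 0.189). Timd4 has 1 annotated transcript, and its values came out at 43 to 55 fragments in db/db libraries and 41 to 100 in control libraries.

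Vsig4 encodes a complement receptor that captures particles coated with C3 fragments (ENSMUSG00000044206, chrX:96247203-96293438, minus strand, mm10). It had 10.6, 12.9, 14.8 and 12.1 FPKM in db/db replicates 1 to 4, against 20.6, 12.9, 8.45 and 11.2 FPKM in control replicates 1 to 4. The db/db libraries lay inside the range of the control libraries. For Vsig4 the log2 fold change was −0.01 with a 95% confidence interval of −0.50 to 0.47 (limma, adjusted p = 0.971), and its sign turned with the library left out, with values of −0.19 to 0.21 over all settings.

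Cd5l encodes a secreted protein of tissue macrophages that circulates with IgM (ENSMUSG00000015854, chr3:87357881-87371073, plus strand, mm10). It had 22.2, 25.7, 19.3 and 24.2 FPKM in db/db replicates 1 to 4, against 34.9, 23.3, 21.8 and 28.7 FPKM in control replicates 1 to 4. The groups overlapped, with all db/db libraries below the control mean of 27.2 FPKM. For Cd5l the log2 fold change was −0.22 with a 95% confidence interval of −0.56 to 0.12 (limma, adjusted p = 0.317).

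Adgre1 encodes F4/80, the adhesion receptor by which mouse macrophages are usually stained (ENSMUSG00000004730, chr17:57358691-57483527, plus strand, mm10). It had 1.30, 1.11, 0.879 and 1.74 FPKM in db/db replicates 1 to 4, against 1.61, 1.83, 1.25 and 2.46 FPKM in control replicates 1 to 4. Of the db/db libraries, 2 lay below every control library and 2 lay within the control range. For Adgre1 the log2 fold change was −0.30 with a 95% confidence interval of −0.67 to 0.06 (limma, adjusted p = 0.202).

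Csf1r encodes the receptor for the growth factors Csf1 and Il34 (ENSMUSG00000024621, chr18:61100598-61132149, plus strand, mm10). It had 3.14, 4.25, 1.93 and 1.20 FPKM in db/db replicates 1 to 4, against 6.26, 1.26, 1.99 and 2.47 FPKM in control replicates 1 to 4. Values spread 3.54-fold within db/db livers and 4.95-fold within control livers, and the groups overlapped over most of that range. For Csf1r the log2 fold change was −0.07 with a 95% confidence interval of −0.86 to 0.72 (limma, adjusted p = 0.902), an interval that leaves sizeable differences in either direction undetectable with these libraries. Its 3′ end overlaps Hmgxb3 on the other strand, and the table gives both a common locus.

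Cd68 encodes a glycoprotein of macrophage endosomes and lysosomes (ENSMUSG00000018774, chr11:69664213-69666153, minus strand, mm10). It had 3.97, 7.94, 2.30 and 3.06 FPKM in db/db replicates 1 to 4, against 6.52, 5.90, 2.34 and 3.03 FPKM in control replicates 1 to 4. In both groups replicates 3 and 4 were low and another library stood at more than 6 FPKM. For Cd68 the log2 fold change was −0.06 with a 95% confidence interval of −0.79 to 0.68 (limma, adjusted p = 0.919). None of these 6 members was called under any of the alternative settings in which it was tested, and the exact permutation p-values were 0.143 for Adgre1, 0.171 for Timd4, 0.257 for Cd5l, 0.857 for Csf1r, 0.914 for Cd68 and 0.971 for Vsig4. A difference that missed the threshold is not shown to be absent.

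The members varied together between libraries of the same group. Control replicate 1 was the highest control library for 8 of the 10 genes, and control replicate 4 was the highest for Marco and Adgre1. Control replicate 3 was the lowest control library for 7 genes and lay below the control mean of the log2 values for all 10. Among db/db libraries, replicate 2 was the highest for 5 genes and replicate 4 for 4, while replicate 3 lay above the db/db mean for 1 gene only, Vsig4. The summed level of the 10 genes was 94.9, 125, 95.4 and 107 FPKM in db/db replicates 1 to 4, against 179, 125, 108 and 121 FPKM in control replicates 1 to 4. Clec4f and Cd5l supply most of these sums.

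**Figure D3:**
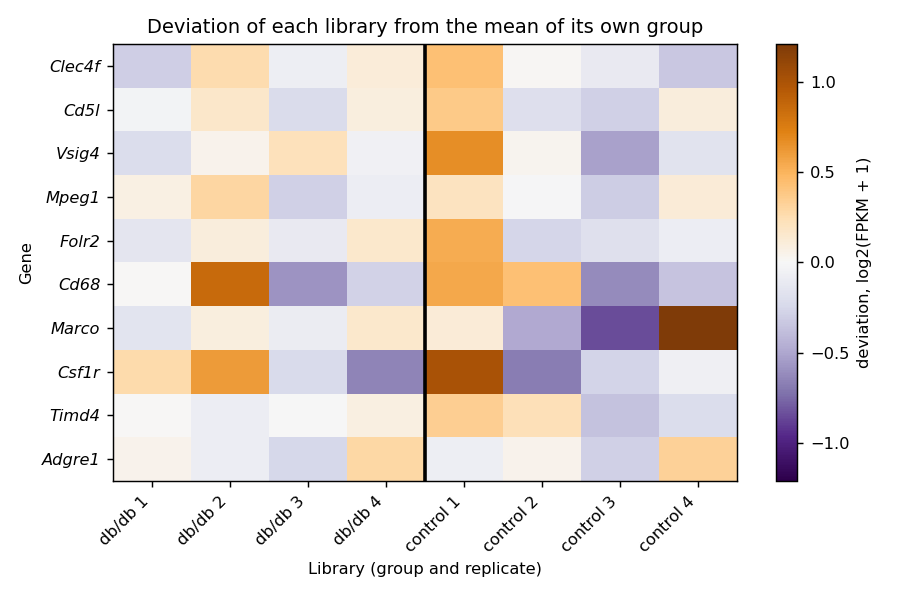
Colours give the deviation of each library (x axis, db/db left of control) from the mean of its own group in log2(FPKM + 1) for each of the 10 genes (y axis). Control replicate 1 is above its group mean for 9 genes, control replicate 3 is below it for all 10, and the darkest cells are Marco in control replicate 4 and Csf1r in control replicate 1.

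When each gene was set against its own group means, 40 of the 45 pairs of members had a positive Pearson correlation over the 8 libraries, with a median r of 0.50. These correlations are descriptions over 8 libraries that all genes share. Cd5l followed the mean of the members most closely (r = 0.95), followed by Folr2 (0.84) and Mpeg1 (0.84), and Adgre1 least (0.33). That mean includes the gene itself, and deviations of both groups were pooled. Pair by pair, Mpeg1 had r of 0.35 with Timd4 up to 0.83 with Cd68. The group means of Mpeg1 differed in the opposite direction to those of the other members. All tested genes together had a median deviation of −0.006 in control replicate 1 and 0.0015 in control replicate 3, against 0.40 and −0.30 for the members. The 26 other tested Kupffer cell genes also lay mostly above the control mean in control replicate 1 (22 of 26) and only 5 of them lay above it in control replicate 3. The pattern was not limited to Kupffer cell genes. Of 17 tested pan-leukocyte genes, 15 lay above the mean in control replicate 1 and 4 in control replicate 3. For 17 tested sinusoidal endothelial genes these numbers were 12 and 7, and for 14 tested hepatocyte genes 5 and 9.

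Ratios of members within a library do not depend on how the library was scaled, and those of Mpeg1 were computed after its values were seen, as a description with no test. The FPKM of Mpeg1 divided by that of Clec4f gave 0.440, 0.351, 0.286 and 0.294 in db/db replicates 1 to 4, against 0.112, 0.128, 0.111 and 0.182 in control replicates 1 to 4. Its ratio to Folr2 was 2.88 to 4.20 in db/db livers and 0.861 to 1.36 in control livers. Its ratio to Cd5l, which itself did not pass the test, was 0.544 to 0.677 in db/db livers and 0.268 to 0.341 in control livers. In all 3 ratios the groups were separate. This followed from the levels alone in each of them, so the separation adds nothing to the levels. For Folr2, Mpeg1 was higher and Folr2 lower in every db/db library than in any control library. For Clec4f and Cd5l, the ranges of the levels within each group left no room for overlap. Mpeg1 and Clec4f had likewise been called in opposite directions. The control libraries that differed most in the members' levels, replicates 1 and 3, differed in each ratio by less than the gap between the groups.

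**Figure D4:**
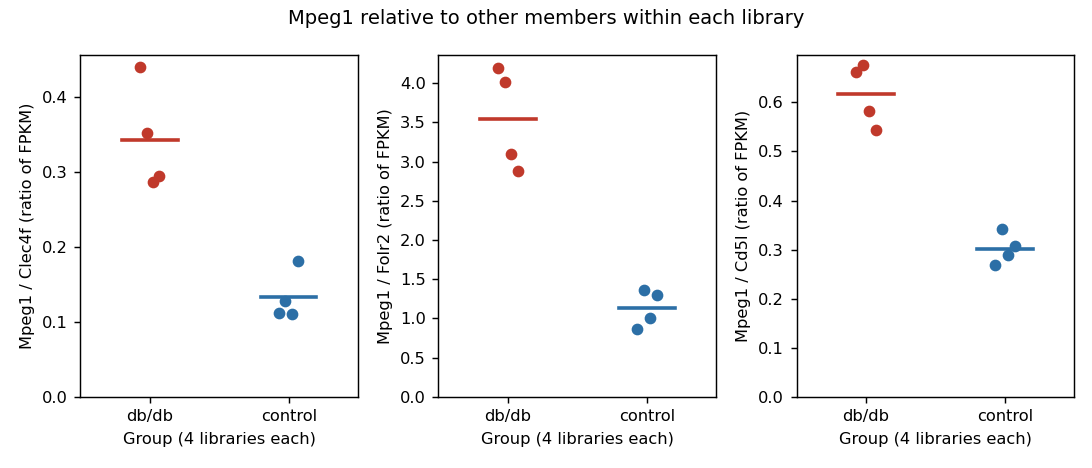
The ratio of the FPKM of Mpeg1 to that of Clec4f, Folr2 and Cd5l (y axes, linear from 0) is shown for each library (points, 4 per group, x axis: group) with a bar at the group mean. All db/db libraries lie above all control libraries in each panel, with Mpeg1 over Cd5l at 0.544 to 0.677 in db/db and 0.268 to 0.341 in control livers. The ranges of the levels within each group fixed this separation.

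The genes whose levels followed the members most closely were found by their Pearson correlation over the 8 libraries with the mean z-score of the 10 genes. They were Oit3 (r = 0.97), Pilrb1 (0.96), Cd55 (0.94), Tbc1d10a (0.93), Cd163 (0.92) and Srgn (0.91). Cd163 encodes the haemoglobin scavenger receptor of macrophages, Pilrb1 an activating receptor of myeloid cells, Srgn the proteoglycan of leukocyte granules, Cd55 an inhibitor of complement, and Oit3 is made in the liver by sinusoidal endothelium. None of the 6 was called between the groups. For instance, Cd163 had 1.98, 2.04, 1.67 and 1.80 FPKM in db/db livers and 3.09, 2.61, 1.92 and 2.44 FPKM in control livers (limma, adjusted p = 0.133).

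With the group means removed, the closest genes were Uggt2 (r = 0.99), Tbc1d10a (0.98), Gclm (0.97), Emcn (0.97), Clec12a (0.97) and Cd55 (0.96). Clec12a encodes an inhibitory lectin receptor of myeloid cells, Emcn an endothelial sialoglycoprotein, Gclm a subunit of the enzyme that starts glutathione synthesis, and Uggt2 a glucosyltransferase of the endoplasmic reticulum. Of these, Uggt2 was significantly higher in db/db livers, at 1.82, 2.18, 1.54 and 1.92 FPKM, against 1.19, 0.549, 0.270 and 0.727 FPKM in control livers (limma, adjusted p = 0.00584). These genes were picked as the highest among 9863 and the likeness is not tested.

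Other genes known from Kupffer cells were read in the same way. For this and the following lists, the shares among all tested genes were 11.6% called lower and 16.0% called higher. No list was tested against these shares, and some genes stand in more than 1 list. Of 26 tested genes in that list, 4 were significantly lower in db/db livers, none was called higher, and the median log2 fold change was −0.10, or 0.03 with equal FPKM sums, a scaling under which the median of all tested genes was 0.18. C1qa, a chain of the complement starter C1q, had 19.9, 30.8, 26.5 and 27.1 FPKM in db/db livers and 54.5, 42.0, 40.5 and 43.4 FPKM in control livers (log2 fold change −0.77, limma, adjusted p = 0.003). The other 2 chains had log2 fold changes of −0.43 for C1qb and −0.44 for C1qc and missed the threshold (limma, adjusted p = 0.0696 and 0.0614). Cfp, which encodes the complement stabiliser properdin, had 7.62, 12.2, 10.7 and 7.85 FPKM in db/db livers and 23.3, 13.8, 15.2 and 15.4 FPKM in control livers (adjusted p = 0.0132). Sdc3, a cell surface proteoglycan, had 1.96 to 3.37 FPKM in db/db livers and 4.56 to 6.15 FPKM in control livers (adjusted p = 0.00534).

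The fourth called gene of that list, the terminal complement component C6, is also made by hepatocytes. It had 52.3, 12.2, 4.31 and 6.02 FPKM in db/db livers and 77.2, 105, 103 and 116 FPKM in control livers (log2 fold change −2.98, limma, adjusted p = 0.00343). Its libraries did not follow the order seen for the members, since control replicate 1 was the lowest control. Hmox1, which breaks down haem, Slc40a1, the iron exporter, and Nr1h3, the lipid-sensing nuclear receptor LXR alpha, gave no call. Hmox1 had a log2 fold change of −0.09 (limma, adjusted p = 0.776), Slc40a1 of −0.07 (0.736) and Nr1h3 of −0.02 (0.919).

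The genes that feed or set up the macrophage lineage were mostly not called. Of 18 tested genes, 2 were lower and 1 was higher, and the list had its median log2 fold change at −0.08, or 0.04 with equal FPKM sums. The ligands of Csf1r were low in both groups, with Csf1 at 1.32 to 2.19 FPKM in db/db livers and 1.63 to 3.06 FPKM in control livers, and Il34 at 0.758 to 3.50 FPKM in db/db livers and 1.16 to 2.59 FPKM in control livers. Spi1, which encodes PU.1, had 1.68, 2.21, 2.90 and 1.54 FPKM in db/db livers and 1.89, 2.54, 2.27 and 1.71 FPKM in control livers (limma, adjusted p = 0.932). Bmp2, a ligand of the niche, was lower, at 2.07, 3.22, 1.84 and 2.16 FPKM in db/db livers against 3.49, 4.07, 4.63 and 4.35 FPKM in control livers (adjusted p = 0.00861). Tgfbr2, a receptor for TGF-beta, was higher with a log2 fold change of 0.48 (adjusted p = 0.0321). Leaving out db/db replicate 1 (0.0688), 2 (0.0922) or 3 (0.0645), or control replicate 1 (0.0843) or 3 (0.0753), ended its call. Cebpa, which hepatocytes express strongly, was lower with a log2 fold change of −0.43 (adjusted p = 0.00917). Its call was lost with equal FPKM sums (limma, adjusted p = 0.0521).

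Among 17 tested scavenger and phagocytic receptors, 3 were lower in db/db livers and none was called higher, and the median of their log2 fold changes was −0.20. Fcgr2b, the inhibitory Fc receptor, had 16.9, 19.3, 20.4 and 17.5 FPKM in db/db livers and 34.8, 29.1, 22.6 and 29.4 FPKM in control livers (limma, adjusted p = 0.00717). Stab1, a scavenger receptor, had 12.2 to 20.4 FPKM in db/db livers and 19.2 to 44.8 FPKM in control livers (adjusted p = 0.0233). Both are also made by sinusoidal endothelial cells. The call of Stab1 was lost without db/db replicate 1 (0.0547) or 4 (0.0667) or control replicate 1 (0.0503). Clec4a3, a lectin of myeloid cells, was called at a log2 fold change of −0.48 (adjusted p = 0.0308). Its call was lost when any db/db replicate (adjusted p of 0.0566 to 0.0701) or control replicate 1 (0.081), 2 (0.0564) or 3 (0.0595) was left out. The scavenger receptors Msr1 (0.16), Mrc1 (−0.20) and Cd163 (−0.28) had log2 fold changes that did not pass.

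The most negative median among the macrophage lists was that of 12 tested C1q, Fc receptor and MHC class II genes, at −0.71, with 5 lower and none called higher. Among the 5, H2-DMb1 (0.134 to 0.454 FPKM in db/db livers, 1.16 to 4.12 FPKM in control livers) passed the filter only through the control libraries, which fixed its direction, and 4 of the other 11 genes were lower. H2-Aa, a class II chain that presents antigen, had 4.70, 8.62, 5.78 and 5.91 FPKM in db/db livers and 32.7, 34.5, 32.4 and 17.9 FPKM in control livers (limma, adjusted p = 8.7e-05). H2-Ab1 had 2.76, 8.44, 7.94 and 4.11 FPKM in db/db livers and 23.8, 33.4, 33.0 and 13.5 FPKM in control livers (adjusted p = 0.00162). Class II genes are in the study's own list of changed genes from these libraries, so their direction is not independent evidence. Control replicate 4 was the lowest control library for all 4 called class II genes (H2-Aa, H2-Ab1, H2-Eb1 and H2-DMb1). For the 10 members it was most often control replicate 3.

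**Figure D5:**
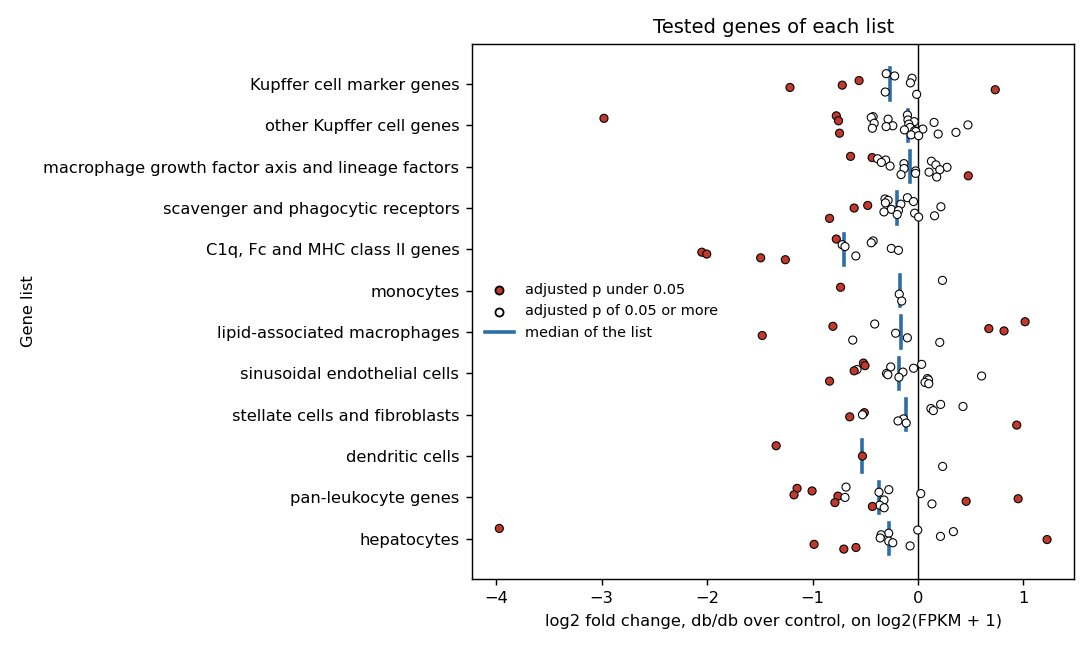
Each point is a tested gene at its log2 fold change of db/db over control livers on log2(FPKM + 1) (x axis), grouped by gene list (y axis, lists with at least 3 tested genes), filled where the adjusted p was under 0.05, with a bar at the median of the list. The 10 Kupffer cell marker genes have a median of −0.26 and the C1q, Fc and MHC class II genes one of −0.71.

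Markers of other cell types were read beside these results, and their part in them was not tested. For monocytes, 4 of 17 genes were tested, 1 was lower (Plac8) and none was called higher, and the summed level was 15.9 to 21.6 FPKM in db/db and 20.1 to 26.1 FPKM in control livers. The defining monocyte genes Ccr2, Ly6c2 and Chil3 reached at most 0.846 FPKM in db/db livers and 0.749 FPKM in control livers. Of 10 tested genes of lipid-associated macrophages, 3 were higher and 2 were lower. Trem2, Gpnmb, Itgax and Mmp12 of this list were too low to test. They reached at most 0.860 FPKM in db/db livers and 0.786 FPKM in control livers. Spp1 was not called (limma, adjusted p = 0.454). Ctsd and Ctsb, lysosomal proteases that hepatocytes make as well, were higher with log2 fold changes of 0.82 and 0.67 (limma, adjusted p = 0.000526 and 0.000739). Atp6v0d2, a proton pump subunit, was higher too (adjusted p = 0.0168), at 2.30, 3.16, 3.86 and 5.95 FPKM in db/db livers and 1.93, 2.15, 0.810 and 0.657 FPKM in control livers. Fabp5 and Cd9 were lower, and the call of Cd9 was lost when db/db replicate 1, 3 or 4, or control replicate 1, 2 or 4, was left out (adjusted p of 0.0707 to 0.101). The summed level of the list was 597 to 706 FPKM in db/db and 529 to 550 FPKM in control livers, mostly from cathepsins.

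Pan-leukocyte genes were called in both directions. Of 17 tested, 6 were lower and 2 were higher, with a median log2 fold change of −0.37 and summed levels of 90.9 to 125 FPKM in db/db and 118 to 160 FPKM in control livers. Coro1a, an actin-binding protein of leukocytes, had 0.880, 1.47, 0.923 and 1.56 FPKM in db/db livers and 4.27, 3.40, 4.04 and 4.08 FPKM in control livers (limma, adjusted p = 0.000189). Hcls1, an actin regulator of blood cells, was higher like Mpeg1, at 4.06, 6.81, 4.79 and 5.20 FPKM in db/db livers and 2.82, 1.77, 1.50 and 2.86 FPKM in control livers (adjusted p = 0.00363). Lcp1, which encodes the leukocyte plastin, was higher with a log2 fold change of 0.46 (adjusted p = 0.0172). Ptprc, which encodes the leukocyte antigen CD45, had a log2 fold change of −0.36 and did not pass (adjusted p = 0.106). Coro1a, Lst1, Hcls1, Bst2 and Fabp5 are in the study's own list of changed genes as well, so their directions are not independent evidence.

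Lymphocyte genes were too low to test. The summed level of 17 T and NK cell genes was 1.17 to 2.81 FPKM in db/db livers and 4.79 to 7.27 FPKM in control livers, and that of 11 B and plasma cell genes was 1.20 to 2.03 FPKM in db/db livers and 1.85 to 6.49 FPKM in control livers. Among neutrophil genes, Ly6g, Camp and Ltf were listed at 0 in all libraries, and the summed level was 2.63 to 12.0 FPKM in db/db and 8.59 to 77.5 FPKM in control livers. The highest neutrophil sum was that of control replicate 3, through S100a8 and S100a9. Among the control libraries, this one had the lowest level for 7 of the Kupffer cell marker genes. Of 3 tested dendritic cell genes, 2 were lower, Bst2 and Cd24a, and the call of Cd24a was kept only when control replicate 4 was the library left out (adjusted p of 0.0506 to 0.117 without any other, limma). Of the defining genes, Clec9a reached 0.991 FPKM in db/db livers and 1.77 FPKM in control livers, while Xcr1, Flt3 and Siglech reached at most 0.372 FPKM in db/db livers and 0.160 FPKM in control livers. The summed dendritic list, nearly all of it the broadly expressed Bst2, was 78.9 to 95.1 FPKM in db/db and 176 to 271 FPKM in control livers.

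Cells that share the sinusoid with Kupffer cells were also measured. Of 17 tested sinusoidal endothelial genes, 4 were lower and none was called higher, with a median log2 fold change of −0.18 and summed levels of 134 to 156 FPKM in db/db and 181 to 207 FPKM in control livers. Stab1 and Fcgr2b, already counted among the scavenger receptors, were among the 4. Of the 17, 11 had a log2 fold change below 0. Lyve1 was higher in every db/db library (2.52 to 6.05 FPKM) than in any control library (1.45 to 2.51 FPKM) but missed the threshold (limma, adjusted p = 0.0528). Clec4g, an endothelial lectin, had 32.4, 29.1, 28.4 and 31.3 FPKM in db/db livers and 48.5, 39.3, 43.8 and 41.9 FPKM in control livers (limma, adjusted p = 0.00422). Of 11 tested genes of stellate cells and fibroblasts, 2 were lower (Hand2 and Des) and 1 was higher (Rgs5), with summed levels of 194 to 278 FPKM in db/db and 234 to 307 FPKM in control livers. The call of Des was lost without db/db replicate 2, 3 or 4 or control replicate 1, 2 or 3 (limma, adjusted p of 0.0588 to 0.0928). Of 14 tested hepatocyte genes, 4 were lower and 1 was higher, and the summed level was 21081 to 22313 FPKM in db/db and 41169 to 46732 FPKM in control livers, mainly through Apoa1. The hepatocyte median of −0.28 became 0.04 with quantile normalization.

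Differences between the groups also followed transcript length across all tested genes. The median log2 fold change was −0.17 for genes whose longest coding transcript was under 1 kb, −0.03 between 1 and 2 kb, 0.07 between 2 and 4 kb and 0.10 above 4 kb. Folr2 (1204 bases), Marco (1925 bases) and Clec4f (2471 bases) are shorter than Mpeg1 (4334 bases), while Csf1r (4701 bases) is longer than all of them and was not called. After each library was corrected for its trend with length, the log2 fold changes were −0.64 for Folr2, −1.24 for Marco, −0.63 for Clec4f and 0.64 for Mpeg1, and all 4 were called (limma, adjusted p of 0.0074 to 0.0286).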

How the data were processed

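Per the labels, total RNA of liver was depleted of rRNA before stranded library preparation. Per the submitters' processing notes the authors used cutadapt 1.9.3, HISAT2 2.0.4 and build mm10, with Cufflinks and Cuffdiff for quantification. The annotation release and strand setting were not given in the sources used here. FPKM were deposited by the authors per gene and library, without pooling, and these are not counts.

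Values were tested as log2(FPKM + 1) with limma 3.58.1 in R 4.3.3 (mean-variance trend, 2-sided, no covariate) for the 9863 genes with 1 FPKM or more in 4 or more libraries. Benjamini-Hochberg adjustment covered all of them, and an adjusted p under 0.05 was a call. On this scale changes of weakly expressed genes are understated. Each member was also compared by an exact permutation test (70 arrangements, not adjusted). The fit was tested on simulated data.

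Fragment numbers were estimated from the step between low values of 2068 genes with 1 transcript. Between 84.0% and 89.8% of values from 1 to 5 fragments lay within 0.1 of a whole number. For genes with several transcripts they are approximate. Coordinates and lengths come from GENCODE M21 (mm10), 1-based, and upstream stretches from RefSeq (GRCm38.p6), read for 8 members, without Csf1r and Adgre1.

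The members, lists and motifs were chosen with earlier results of these data known. Text names all members, from each other list up to 5 tested genes with the smallest adjusted p plus calls against the direction of most, and the 6 genes most like the members by each measure of likeness. Csf1, Il34, Spi1, Hmox1, Slc40a1, Nr1h3, Msr1, Mrc1, C1qb, Ptprc, Lyve1 and Spp1 lie outside that rule and were named after their values were seen, as were the ratios chosen. Alternatives changed the pseudocount, filter, scaling, variance model or weights, left out each library, and, chosen after seeing the data, corrected for length.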

Additional observations from a re-analysis of the deposited data

Results flagged for a closer look

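In groups of 4 libraries, a library was picked out when its gap to the nearest other library was too large a part of the group's range (Dixon's critical value at 95%). Among 142 groups checked (71 named genes in 2 groups) 8 met this, and chance alone gives about 1 in 20. None of the 20 groups of the 10 Kupffer cell marker genes was among them. High libraries were db/db replicate 1 for C6 (52.3 FPKM), Aqp1 (16.3 FPKM) and G6pc (365 FPKM), db/db replicate 2 for Fabp5 (13.8 FPKM), control replicate 3 for Apoa1 (18621 FPKM) and control replicate 4 for G6pc (199 FPKM). Low libraries were control replicate 4 for H2-Aa (17.9 FPKM) and control replicate 2 for Plac8 (6.50 FPKM).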

How the results depend on the processing

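Of the 10 members, Folr2 and Mpeg1 kept their call under every alternative, and the 6 members that were not called gained no call. The number of members called lower was 3 and fell to 1 with no filter. It ranged from 1 to 3 when libraries were left out one at a time, with 1 (Folr2) without db/db replicate 1, 3 or 4 or control replicate 1. The number called higher was 1 throughout. With equal FPKM sums, the median log2 fold change of all tested genes was 0.18, and 2486 genes were called higher and 766 lower, against 1582 and 1147. Relative to that shift the directions of the 4 called members were kept. Leaving out a library gave 1247 to 1461 genes higher and 878 to 1081 lower. Among other named genes, Tf and Ttr reversed with quantile normalization (log2 fold changes of 0.12 and 0.23). The cause was not tested. Precision is limited for Marco by the spread of its control libraries (SD of 3.11 FPKM, against 0.177 FPKM in db/db libraries). In addition, each db/db library held fewer than 30 fragments of it. No paired analysis was possible because the numbers in the labels of the 2 groups share fewer than 2 values.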
